A study of Homo sapiens with 6 samples.

Results

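Notch signaling passes between touching cells. A ligand of the Jagged or Delta-like family on one cell binds a NOTCH receptor on its neighbor, the receptor is cut by an ADAM protease and then by gamma-secretase, and the freed intracellular domain enters the nucleus. There it joins the DNA-binding protein RBPJ and a Mastermind-like coactivator and switches on targets such as HES1, HEY1 and NRARP, of which the first and second are transcriptional repressors and the last restrains the pathway itself. Much of the control of Notch signaling lies in protein cleavage, which RNA levels do not show.

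The 9 Notch genes described here are 3 receptors (NOTCH1, NOTCH2 and NOTCH3), 2 ligands (JAG1 and JAG2), the coactivator MAML2 and 3 target genes (HES1, HEY1 and NRARP). They were chosen by name, and they are read by 24 of the 54613 probe sets compared, where 1 gene can have several probe sets. NOTCH2 is also annotated, together with 4 NOTCH2NL genes, to 1 further probe set, which is given apart. The human mesothelioma line NCI-H226, an established cell line, was grown as spheroids (3 cultures) or as adherent monolayers (3 cultures). Each spheroid was made from 10000 dissociated cells, spun down in a well coated with poly-HEMA to prevent attachment. It was then incubated for 24 hours without matrix. All 6 cultures were of this 1 line. The line was maintained as monolayers in serum-containing medium, while the medium of the spheroids is not given in the sources used here. The spheroids came from separate experiments, while how the monolayer cultures were separated and the density of the monolayers used for RNA are not given in the sources used here.

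RNA from each culture was hybridized to an Affymetrix Human Genome U133 Plus 2.0 array. The values are MAS5 signals, linear brightness values scaled to the same trimmed mean on every array. The groups were compared on log2 signals centred on the median of each array by limma, and calls of up- or downregulation rest on p values adjusted by Benjamini-Hochberg over all 54613 probe sets, with 0.05 as the limit. Fold changes are spheroid minus monolayer on this centred log2 scale, with a standard error (SE) or a 95% confidence interval. Where a gene has several probe sets, the one with the highest mean level stands for the gene. The array median lay 0.15 higher in spheroids on the log2 scale before centring, so fold changes on the values as deposited are higher by that amount. By these measures 9.43% of all probe sets were called, 2.78% up and 6.65% down. The share of calls that were up was 29.5%, against 47.2% without centring and 45.4% after quantile normalization. Mesothelial marker genes were bright: 9 of 10 lay above the 75th percentile of all probe sets, with a summed signal of 19223 to 22081 in spheroids and 13331 to 20355 in monolayers. In this list PDPN was called up (log2 fold change 1.10, adjusted p = 0.0396 by limma). No marker of leukocytes, endothelium or fibroblasts lay above the 75th percentile. The 6 measured leukocyte markers summed to 199 to 222 in spheroids and 122 to 145 in monolayers, with ITGAX called up. The 7 endothelial markers summed to 180 to 233 in spheroids and 243 to 478 in monolayers, and the 6 fibroblast markers to 167 to 225 in spheroids and 82.7 to 465 in monolayers, with no call. The part of these markers in the Notch values was not tested.

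NOTCH1 and JAG2 were downregulated in spheroids, while NOTCH2, JAG1, NOTCH3, MAML2 and the 3 target genes were not called. Of the 24 probe sets 2 were called, both down, which is 8.33% beside the 9.43% of all probe sets. Limma called 0 up, with 3 up and 4 down at an unadjusted p under 0.05, while the methods' t-test, adjusted alike, called 1 up, the second NOTCH3 probe set, and 2 down, the brightest of NOTCH1 and the second of JAG2. Counted by gene, 2 of 9 were called (22.2%), both down, where 13.1% of all 19775 genes were called, 3.88% up and 9.22% down. The median log2 fold change was -0.16 over the 9 genes and -0.06 over all genes. Over the probe sets it was 0.02 for the 24 and -0.08 for all. The deposited signals of the groups did not overlap at 7 of the 24 probe sets, 3 of them higher and 4 lower in spheroids. That share, 29.2%, equals the 29.2% over all probe sets. By gene it was 4 of 9 (44.4%), beside 34.9% of all genes. For bulk RNA such as this, fewer cells that express a gene and less RNA per cell cannot be told apart.

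**Figure D1:**
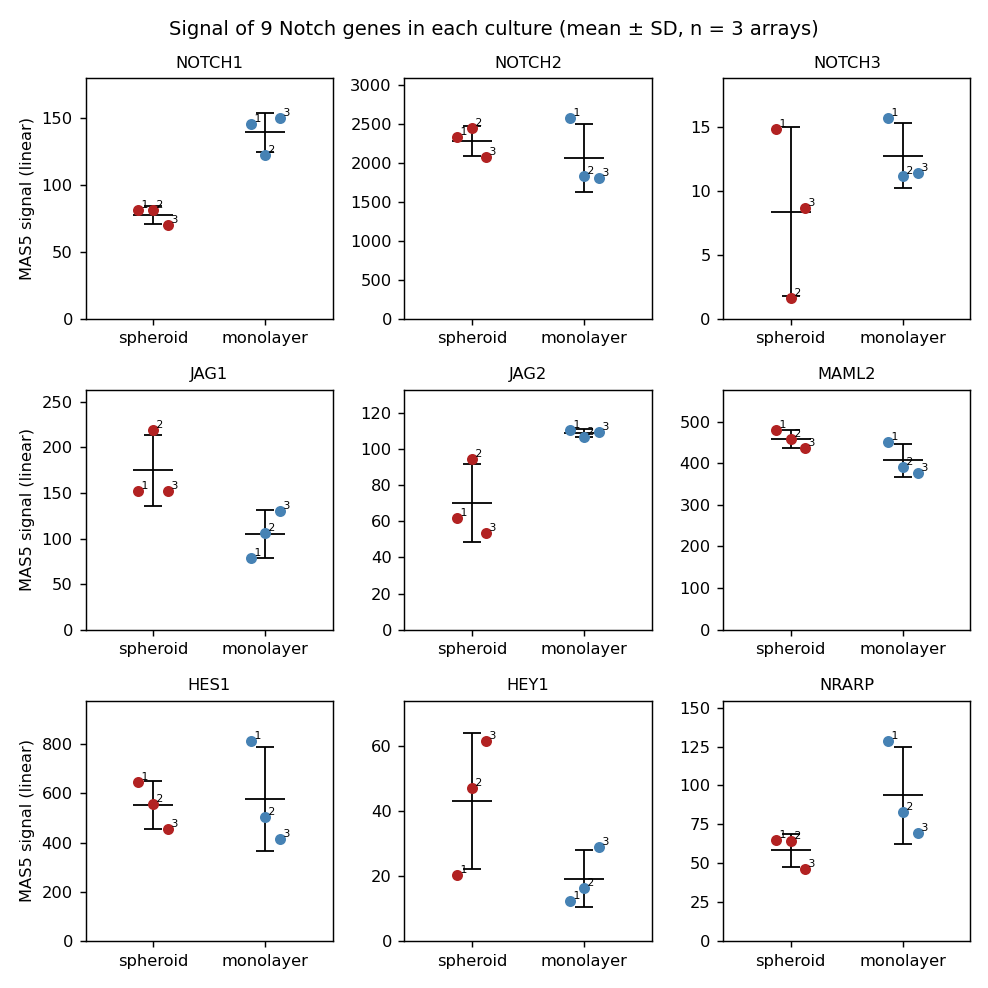
MAS5 signal (linear scale from 0) of each of the 9 Notch genes at its probe set of highest mean level, with spheroids on the left and monolayers on the right of each panel. Each point is 1 array, numbered by replicate, and bars show the mean and SD of 3 arrays. The groups are apart for NOTCH1, JAG1, JAG2 and NRARP and overlap for the other 5 genes.

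NOTCH1 showed the firmest change among the receptors. Its signal was 81.0, 81.5 and 69.9 in spheroids, against 145, 122 and 150 in monolayers. All 3 spheroids lay below all 3 monolayers, with a gap wider than the range within either group. The means were 77.5 ± 6.55 in spheroids and 139 ± 14.6 in monolayers (SD, n = 3 each). The log2 fold change was -0.99 (SE 0.16, 95% interval -1.36 to -0.62, adjusted p = 0.00653 by limma). The call held without centring (-0.84, adjusted p = 0.0124 by limma), after quantile normalization and without any single array, and ended without the mean-variance trend (adjusted p = 0.0732 by limma). The second NOTCH1 probe set had means of 1.93 in spheroids and 1.73 in monolayers, below the 20th percentile of all signals (3.11), and its interval of -1.50 to 1.73 sets no useful limit. Averaging both probe sets gave -0.44 for the gene, which did not pass (adjusted p = 0.561 by limma).
NOTCH2, a receptor closely related to NOTCH1, was bright and not called at any of its 4 probe sets. At the brightest it had signals of 2333, 2452 and 2078 in spheroids, against 2574, 1829 and 1802 in monolayers. The spheroids lay within the span of the monolayers, where monolayer 1 was far above the other 2. The log2 fold change was 0.02, with an interval of -0.35 to 0.38. At the other 3 probe sets it ran from 0.09 to 0.32, with adjusted p by limma from 0.557 to 0.857. Without monolayer 1 the brightest probe set gave 0.18 and still did not pass. The brightest probe set is of the x_at kind, which can also bind transcripts of related sequence. The probe set shared with the NOTCH2NL genes, recent human copies of the NOTCH2 start, had a log2 fold change of -0.20 (interval -0.72 to 0.33).
NOTCH3, another receptor, gave values on opposite sides of 0 at its 2 probe sets, without a call. At the first the signal was 14.8, 1.61 and 8.62 in spheroids, against 15.6, 11.1 and 11.4 in monolayers. Here the spheroids were scattered over the whole range, and the log2 fold change of -1.23 had an interval of -3.07 to 0.60. Single arrays moved it widely, to -0.22 without spheroid 2, whose signal lay under the 20th percentile, and to -1.93 without spheroid 1. At the second the signal was 11.2, 13.1 and 8.92 in spheroids, against 3.80, 3.05 and 3.68 in monolayers. All spheroids were higher there, with a log2 fold change of 1.50 (SE 0.48, adjusted p = 0.0905 by limma), just short of the threshold. It passed without the trend (adjusted p = 0.0495 by limma), by the methods' t-test and with dim signals raised to the 20th percentile. The 2 probe sets give no single direction for NOTCH3.

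Among the ligands, JAG2 was downregulated and JAG1 lay higher in spheroids without being called. JAG2, a Jagged ligand, had signals of 62.0, 94.4 and 53.8 in spheroids, against 111, 107 and 109 in monolayers. The monolayers were nearly identical, and spheroid 2 came closest to them without reaching them. The means were 70.0 ± 21.5 in spheroids and 109 ± 2.03 in monolayers (SD, n = 3 each). The log2 fold change was -0.83 (SE 0.19, interval -1.25 to -0.40, adjusted p = 0.0275 by limma). Its second probe set read 53.3, 58.0 and 50.3 in spheroids, against 69.5, 81.7 and 75.0 in monolayers. The groups were again apart, and the log2 fold change of -0.63 missed the threshold (SE 0.18, adjusted p = 0.0581 by limma). It passed without monolayer 1, at -0.69, among bright probe sets alone and by the methods' t-test. The JAG2 call is a near one: adjusted p by limma was 0.1 without centring, 0.0848 after quantile normalization, 0.126 without the trend, and 0.0767, 0.0957, 0.0935 and 0.0928 without spheroids 1 and 3 and monolayers 2 and 3, in that order. The call was also lost by the methods' t-test. The fold change stayed between -0.98 and -0.68 in all alternatives tried.
JAG1, the other Jagged ligand measured, had signals of 153, 219 and 152 in spheroids, against 78.9, 106 and 131 in monolayers, at its brightest probe set. The groups did not overlap, and the log2 fold change was 0.60 (SE 0.21, interval 0.13 to 1.06, adjusted p = 0.115 by limma). Its second bright probe set read 142, 173 and 145 in spheroids, against 75.5, 125 and 117 in monolayers, with a log2 fold change of 0.42 (adjusted p = 0.28 by limma), or 0.19 without monolayer 1. The 4 dimmer JAG1 probe sets had group means between 2.04 and 14.0, overlapping groups and log2 fold changes from -0.86 to 0.21. Averaged over all 6 probe sets, JAG1 gave -0.01.
The ratio of 2 signals on the same array is free of the array's scaling. The log2 ratio of JAG1 to JAG2 at their brightest probe sets was 1.30, 1.22 and 1.50 in spheroids, against -0.49, -0.02 and 0.26 in monolayers. Every spheroid was thus above every monolayer, by a mean difference of 1.42. This had to be so, as JAG1 was higher and JAG2 lower in every spheroid at these same probe sets. The log2 ratio of NOTCH1 to NOTCH2 was -4.85, -4.91 and -4.89 in spheroids, against -4.15, -3.90 and -3.59 in monolayers. It was lower in each spheroid, by a mean of -1.00, which restates the log2 fold changes of -0.99 for NOTCH1 and 0.02 for NOTCH2. Both ratios were chosen after the values were seen, so they are a description and were not tested. These probe sets bind with unlike strength, so only the shift of a ratio can be read, not its level.

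**Figure D2:**
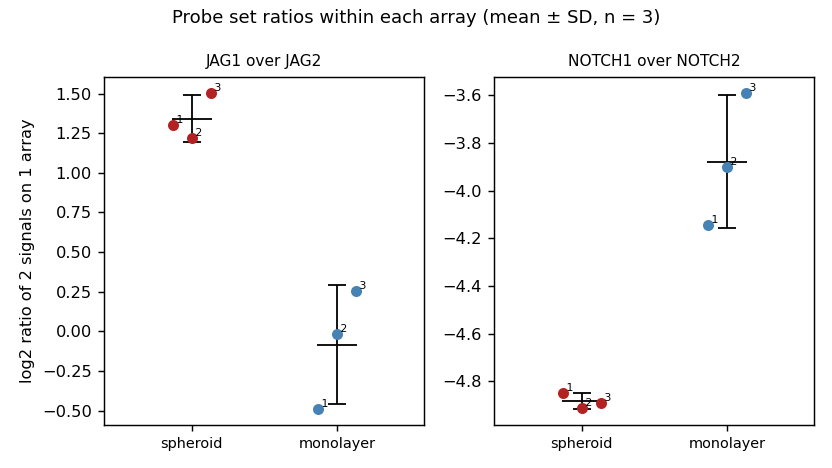
Log2 ratio of 2 probe set signals on the same array, with spheroids left and monolayers right in each panel. Each point is 1 array, numbered by replicate, bars show the mean and SD of 3 arrays, and vertical scales differ and do not start at 0. The ratios, chosen after the values were seen, differ between group means by 1.42 for JAG1 over JAG2 and by -1.00 for NOTCH1 over NOTCH2.

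None of the 3 target genes was called. HES1, a repressor that is a classic direct target of Notch, had signals of 647, 555 and 454 in spheroids, against 814, 504 and 413 in monolayers at its brightest probe set. The spheroids fell inside the wide span of the monolayers. The log2 fold change was -0.16, with an interval of -0.72 to 0.39. The second probe set read 248, 237 and 248 in spheroids, against 327, 194 and 181 in monolayers, with a log2 fold change of -0.03. The third had group means of 1.33 in spheroids and 1.88 in monolayers, under the 20th percentile. HES1 gave 0.11 without monolayer 1 and -0.02 on the values as deposited, so it has no settled direction.
HEY1, a repressor of the same family, read 20.3, 47.3 and 61.7 in spheroids, against 12.2, 16.4 and 29.0 in monolayers at its brighter probe set. Spheroids 2 and 3 lay above all monolayers, while spheroid 1 was within their span. The log2 fold change was 0.97, with a wide interval of -0.09 to 2.04 (adjusted p = 0.267 by limma). The other HEY1 probe set read 15.4, 38.1 and 38.6 in spheroids, against 12.3, 9.93 and 16.1 in monolayers. Again spheroids 2 and 3 lay above all monolayers and spheroid 1 within their span, with a log2 fold change of 1.03 (interval 0.07 to 1.99, adjusted p = 0.188 by limma). Without spheroid 3 the first probe set gave 0.60, and without spheroid 1 it gave 1.42.
NRARP, an ankyrin repeat protein that dampens Notch signaling, has 1 probe set. It read 65.0, 64.1 and 46.0 in spheroids, against 129, 82.7 and 69.2 in monolayers. All spheroids were below all monolayers, though spheroid 1 and monolayer 3 were close. The log2 fold change was -0.79 (SE 0.26, interval -1.37 to -0.21, adjusted p = 0.0948 by limma), short of the threshold, and -0.54 without monolayer 1. MAML2, a Mastermind-like coactivator that bridges the receptor domain to the transcription machinery, read 481, 459 and 436 in spheroids, against 452, 392 and 376 in monolayers at its brighter probe set. The groups overlapped, and the log2 fold change of 0.03 had the narrowest interval of the 9 genes, -0.28 to 0.34. Its dimmer probe set gave -0.19 (interval -0.96 to 0.58).

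**Figure D3:**
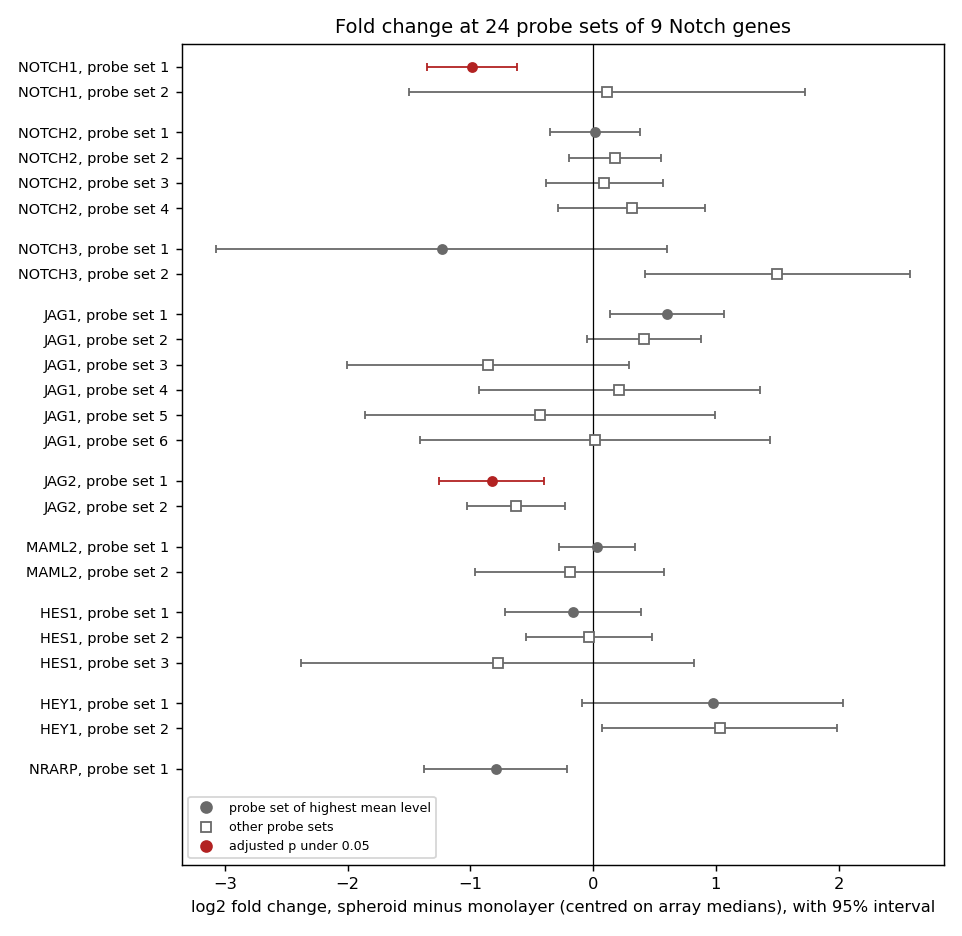
Log2 fold change, spheroid minus monolayer on values centred on array medians, at all 24 probe sets of the 9 Notch genes, with 95% intervals. Filled circles are the probe sets of highest mean level, open squares the others, and red marks an adjusted p under 0.05. Only NOTCH1 at -0.99 and JAG2 at -0.83 are red, and the 2 NOTCH3 probe sets lie on opposite sides of 0.

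Monolayer 1 stood apart at several of these genes and at marker genes. On centred values it was the highest of the 3 monolayers at 6 of the 9 genes (66.7%), where this was so for 36.3% of all genes. Over the 24 probe sets of the 9 genes it was 13 (54.2%). The 6 genes include JAG2, whose monolayers were nearly identical, and NOTCH3, which was dim. Its whole-array correlation with the other monolayers was 0.9389 and 0.9369, while monolayers 2 and 3 correlated at 0.9498. The mesothelial keratin KRT5 read 911, 267 and 290 in spheroids, against 1845, 130 and 79.3 in monolayers, so replicate 1 was the highest in both groups. CALB2, the mesothelial marker calretinin, read 2238, 1317 and 1765 in spheroids, against 1582, 163 and 83.6 in monolayers. The endothelial receptor KDR read 61.2, 14.4 and 32.9 in spheroids, against 422, 13.6 and 8.35 in monolayers. The collagen gene COL3A1 read 24.8, 1.84 and 5.18 in spheroids, against 313, 4.67 and 6.67 in monolayers. Monolayer 1 was thus far above the other monolayers at all 4 markers, and spheroid 1 was the highest spheroid at all 4. These markers were picked after their values were seen, and others of the same lists went the other way. TIE1, the brightest endothelial marker, read 62.4, 165 and 124 in spheroids, against 19.3, 204 and 205 in monolayers. The fibroblast marker LUM read 7.70, 14.2 and 17.2 in spheroids, against 1.86, 15.1 and 9.91 in monolayers. At both, replicate 1 was the lowest in each group. Monolayer 1 also gave the top of the endothelial and fibroblast sums, 478 and 465, of which KDR alone was 422 and COL3A1 alone 313.
By likeness over the 6 arrays, the genes with patterns nearest to NOTCH1 were MPHOSPH9 (Pearson r = 0.999), ZNF180 (r = 0.9989) and CKAP2L (r = 0.9988), chosen from 12368 genes. Nearest to JAG2 were SYNM (r = 0.9912), ERCC6L (r = 0.9903) and CABIN1 (r = 0.9889). All 6 had log2 fold changes below 0, which follows from choosing them by likeness to genes that were lower in spheroids. Of them CABIN1 alone was not called. These correlations are a description over 6 arrays that fall into 2 groups.

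The promoter sequences of the genes on which these results turn are shown as context for where RBPJ could bind. They are RefSeq windows on GRCh38.p14, from 250 bases before the annotated start to 50 after it, written 5′ to 3′ on the strand of the gene. HES1 lies at chr3:194136148-194138732, NRARP at chr9:137299631-137302271, NOTCH1 at chr9:136494433-136546048 and JAG2 at chr14:105140995-105168776. Capitals mark TGGGAA, the core letters of the RBPJ motif, searched on both strands. HES1 and NRARP are shown as direct targets, and NOTCH1 and JAG2 as the genes called.
HES1 chr3:194135898-194136197: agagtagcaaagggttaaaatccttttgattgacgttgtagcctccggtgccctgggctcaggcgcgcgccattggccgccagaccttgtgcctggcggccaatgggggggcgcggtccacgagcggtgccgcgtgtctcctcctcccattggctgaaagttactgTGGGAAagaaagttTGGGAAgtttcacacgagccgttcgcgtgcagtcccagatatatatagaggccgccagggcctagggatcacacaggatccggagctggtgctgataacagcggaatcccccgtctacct
NRARP chr9:137302222-137302521: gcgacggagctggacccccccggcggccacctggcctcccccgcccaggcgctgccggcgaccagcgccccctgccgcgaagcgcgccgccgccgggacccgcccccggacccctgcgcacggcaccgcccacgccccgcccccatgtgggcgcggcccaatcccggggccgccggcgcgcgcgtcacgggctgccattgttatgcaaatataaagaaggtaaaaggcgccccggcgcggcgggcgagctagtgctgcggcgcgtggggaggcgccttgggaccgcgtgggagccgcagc
NOTCH1 chr9:136545999-136546298: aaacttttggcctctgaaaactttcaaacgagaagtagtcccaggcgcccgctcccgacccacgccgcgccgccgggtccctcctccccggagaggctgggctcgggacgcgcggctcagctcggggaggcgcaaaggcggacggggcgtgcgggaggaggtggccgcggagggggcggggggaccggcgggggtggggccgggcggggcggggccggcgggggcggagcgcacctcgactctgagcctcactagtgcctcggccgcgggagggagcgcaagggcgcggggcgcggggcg
JAG2 chr14:105168727-105169026: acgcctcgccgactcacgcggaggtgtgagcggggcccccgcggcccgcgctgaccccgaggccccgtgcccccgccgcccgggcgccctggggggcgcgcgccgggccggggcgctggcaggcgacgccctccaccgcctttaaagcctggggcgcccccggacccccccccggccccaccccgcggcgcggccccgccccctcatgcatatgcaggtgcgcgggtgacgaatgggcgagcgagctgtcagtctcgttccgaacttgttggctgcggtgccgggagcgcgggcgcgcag
The HES1 window held the letters at 2 places, from -84 to -79 and from -70 to -65 relative to the start, both on the strand of the gene. They were in none of the other 7 windows found for the 9 genes, while 24.0% of 35116 promoters of the same length hold them. CACNAG, the N-box that HES proteins bind, matched 6 of the 8 windows, HES1 at 4 places, NOTCH1 and MAML2 at 2 each and NOTCH2, NOTCH3 and NRARP at 1 each, where 38.0% of promoters hold it. CACGCG, another site of this family, matched HES1 and NRARP at 2 places each and JAG1 and JAG2 at 1, against 11.4% of promoters. The E-box CACGTG, held by 7.26% of promoters, matched none of the 8 windows. A match is only a description of the letters, and binding was not measured.

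Other genes of the pathway were read from lists of 62 genes, of which 58 had a probe set with their name alone. At the brightest probe sets limma called 3 up and 3 down, or 10.3%, beside 13.1% of all genes, with a median log2 fold change of 0.04 against -0.06 over all genes. The methods' t-test, adjusted alike, called 0 up and 1 down, HDAC2. A further 3 genes, POFUT1, FBXW7 and CNTN1, were called at 1 dimmer probe set each, CNTN1 up and the others down. That CNTN1 probe set read only 3.31, 3.41 and 7.49 in spheroids, against 1.08, 0.39 and 0.39 in monolayers. The brightest CNTN1 probe set had a log2 fold change of -0.73 without a call. Among the ligands outside the Jagged pair, DNER, an atypical Notch ligand best known from neurons, was upregulated. It read 583, 619 and 722 in spheroids, against 125, 173 and 297 in monolayers. Every spheroid was well above every monolayer, with a log2 fold change of 1.64 (SE 0.28, adjusted p = 0.00818 by limma). DLK2, a Delta-like protein that lacks the receptor-activating domain, was downregulated. It read 51.6, 76.5 and 65.3 in spheroids, against 120, 116 and 134 in monolayers, a log2 fold change of -1.09 (SE 0.18, adjusted p = 0.00606 by limma). The 3 canonical Delta-like ligands DLL1, DLL3 and DLL4 were not called, with log2 fold changes of -0.55, 0.28 and -0.79.
Of 8 genes for cleavage of receptors and ligands, 2 were called up and none down, and the fold changes of all 8 were above 0. Over all genes 3.88% were called up and 46.0% had a fold change above 0. ADAM17, a membrane protease that sheds many surface proteins and can cut NOTCH receptors, read 1872, 1831 and 1828 in spheroids, against 1031, 842 and 816 in monolayers. The spheroids were almost alike and all higher, with a log2 fold change of 0.90 (SE 0.14, adjusted p = 0.00551 by limma), and all 3 of its probe sets were called up. APH1B, a subunit of gamma-secretase, read 207, 290 and 270 in spheroids, against 57.2, 122 and 102 in monolayers. Its log2 fold change was 1.36 (SE 0.27, adjusted p = 0.0147 by limma), with both of its probe sets called up, and the call ended without spheroid 2 or 3 (adjusted p = 0.0706 by limma for each). ADAM10, the main protease of ligand-driven NOTCH cleavage, gave 0.05 (SE 0.17), and the gamma-secretase subunits APH1A, PSENEN, NCSTN and PSEN2 gave 0.25, 0.24, 0.27 and 0.17 without a call.
In the nucleus, the histone deacetylase HDAC2, 1 of 7 measured corepressor genes, was downregulated. It read 1322, 1394 and 1262 in spheroids, against 1727, 1645 and 1695 in monolayers, a log2 fold change of -0.50 (SE 0.12, adjusted p = 0.0294 by limma). None of 9 genes of the transcription complex was called by limma (0 up and 2 down at an unadjusted p under 0.05, and 0 by the methods' t-test). SNW1, a coactivator and splicing factor, came nearest, at -0.47 (adjusted p = 0.0555 by limma), and RBPJ itself had a log2 fold change of -0.34 (SE 0.15, adjusted p = 0.232 by limma). NUMBL, a relative of the Notch antagonist NUMB, was downregulated, the only call at a brightest probe set among 14 genes of turnover and endocytosis. It read 356, 296 and 314 in spheroids, against 436, 498 and 407 in monolayers, a log2 fold change of -0.62 (SE 0.16, adjusted p = 0.0439 by limma). In the same list, the called probe set of FBXW7 was not dim, at the 80.2th percentile of level. It read 169, 138 and 141 in spheroids, against 243, 241 and 256 in monolayers (log2 fold change -0.87, SE 0.16, adjusted p = 0.0109 by limma). The brightest FBXW7 probe set gave -0.60 without a call (adjusted p = 0.076 by limma), with the groups apart. HDAC2 and NUMBL each have 2 probe sets, of which only the brightest was called. The mean of both lost the call (adjusted p = 0.0905 for HDAC2 and 0.103 for NUMBL by limma). The calls of HDAC2 and NUMBL each ended under 8 of 15 alternatives, among them leaving out spheroid 3, monolayer 2 or monolayer 3. Without spheroid 1 and without monolayer 1 HDAC2 also lost its call, and without spheroid 2 NUMBL did.
No gene of receptor glycosylation was called by limma among 5 at its brightest probe set (1 up and 2 down at an unadjusted p under 0.05, and 0 by the methods' t-test). POFUT1, which adds the O-linked fucose that NOTCH receptors need, was closest at -0.66 (SE 0.18, adjusted p = 0.0549 by limma), and passed without monolayer 1 at -0.71 and among bright probe sets alone. Its dimmer probe set was called down (-2.54, adjusted p = 0.0361 by limma), with means of 2.12 in spheroids and 11.0 in monolayers. The spheroid mean there lay under the 20th percentile of all signals (3.11). The mean of both probe sets, which includes this dim one, gave -1.60 and a call (adjusted p = 0.0139 by limma). No other HES or HEY gene was called among 7 (0 at an unadjusted p under 0.05 and 0 by the methods' t-test). HEY2, a HEY1 relative, read 18.5, 3.11 and 2.58 in spheroids, against 13.6, 20.3 and 11.4 in monolayers. Spheroid 1 was as high as the monolayers, and the other spheroids lay near or under the 20th percentile of all signals. HEY2 thus gave -1.62 over all arrays and -2.55, with a call, without spheroid 1 (adjusted p = 0.034 by limma). NOTCH4, the fourth receptor, gave 0.47 (SE 0.45).

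**Figure D4:**
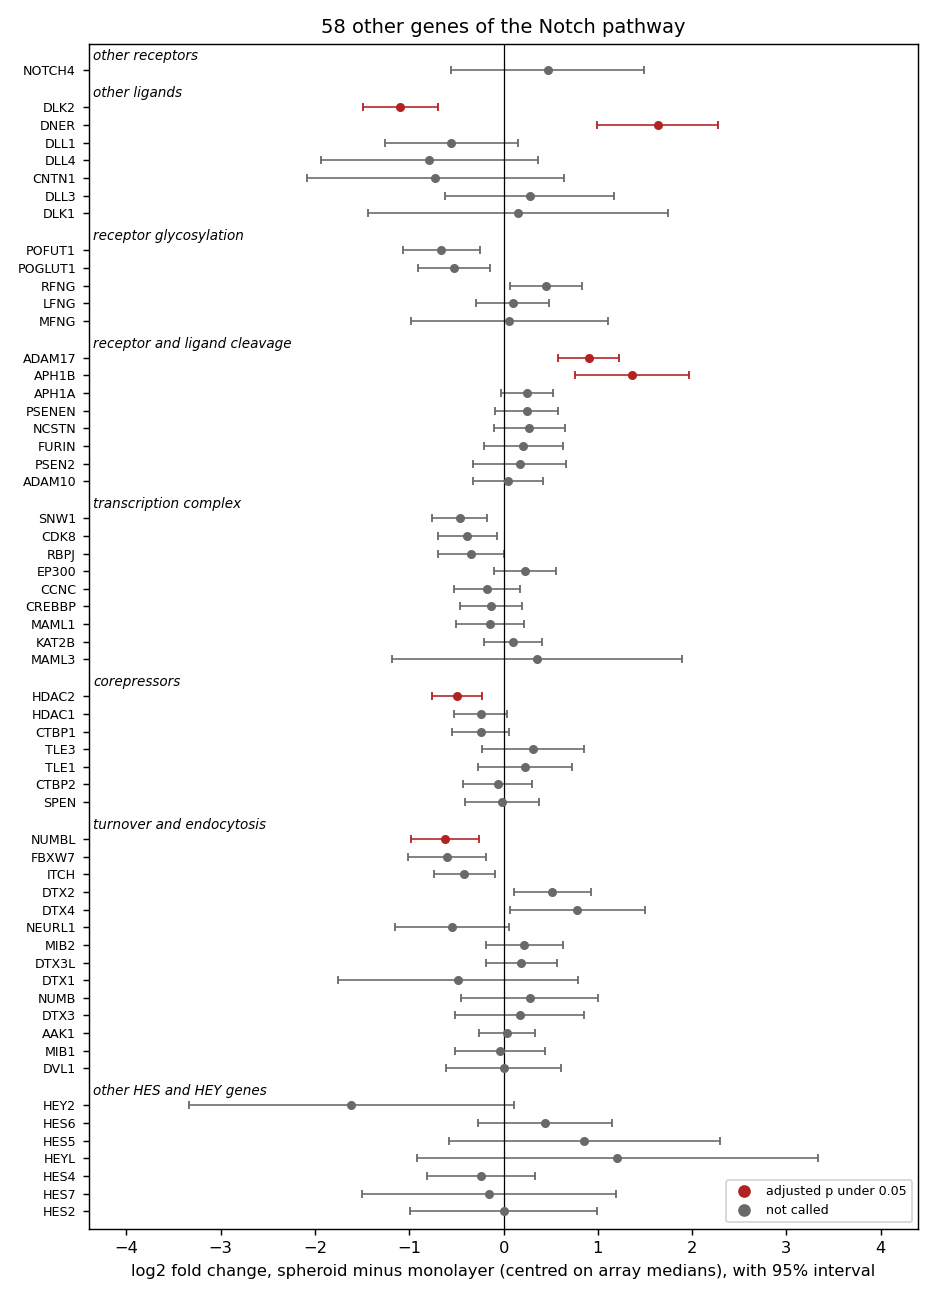
Log2 fold change, spheroid minus monolayer on values centred on array medians, of 58 other Notch pathway genes grouped by role, each at its probe set of highest mean level, with 95% intervals. Red marks an adjusted p under 0.05: DNER, ADAM17 and APH1B above 0, and DLK2, HDAC2 and NUMBL below.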

How the data were processed

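Total RNA of 3 spheroid and 3 monolayer cultures was measured on 1 array each. The authors made the deposited signal intensities, which are on a linear scale, with MAS5 and scaled them to a trimmed mean (2% left out at each end) of 150.02 on every array. The version of MAS5 and the detection calls were not used here, so how far a signal lies above background is unknown. Precision is limited by the number of arrays. The 54675 probe sets include 62 controls, which were left out. Signals were transformed to log2 without pseudocount, floor or filter, centred on each array's median and compared with limma 3.58.1 (R 4.3.3) with a mean-variance trend. P-values set the group difference against the spread between these cultures, with variances moderated across probe sets. What that spread stands for among the monolayers is not known, as how they were separated is not given. The annotation, of older date and updated by gene ID, gives 1 symbol to 41097 probe sets, several to 1801 and none to 11777. Promoters come from RefSeq; 8 of the 9 genes matched.
The genes, the pathway lists and the tests were chosen with earlier results of these data known, and the 2 within-array ratios after the values were seen. Named genes are all 9 Notch genes and, per pathway list, up to 3 called genes in each direction or else the gene of smallest adjusted p; other values are given for context. Alternatives were the values as deposited, quantile normalization, bright probe sets alone, a floor at the 20th percentile, the methods' t-test, limma with no trend, a replicate block, the mean of all probe sets of a gene and leaving out each array. The fit was tested on simulated data with known changes. As a check of RNA integrity, the 3'/5' ratio of ACTB was 1.18 ± 0.0603 in spheroids and 1.09 ± 0.0123 in monolayers (SD, n = 3 each; p = 0.1 by an exact two-sided permutation test, the lowest these arrays allow), and that of GAPDH 0.901 ± 0.0121 in spheroids and 0.895 ± 0.0174 in monolayers (exact p = 0.6); adjusted over both they were 0.2 and 0.6.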

Additional observations from a re-analysis of the deposited data

How the results depend on the processing

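NOTCH1 and JAG2 kept their direction in all 15 alternatives each. The 2 called Notch genes, and likewise the 2 called probe sets, were 1 on the values as deposited and 1 after quantile normalization, NOTCH1 alone. Without the trend 0 genes and 1 probe set (NOTCH3, up) were called. The methods' t-test called 1 gene after adjustment and, unadjusted, 4 of the probe sets. With the mean of all probe sets 1 gene, JAG2, was called. Leaving out single arrays gave 1 to 2 genes and 1 to 3 probe sets, 1 each without spheroids 1 and 3 and monolayers 2 and 3. Of the 7 genes not called, NOTCH2, NOTCH3, JAG1, MAML2 and HES1 changed sign in at least 1 alternative, never with a call.
The 6 calls among other pathway genes were 0 without the trend (HDAC2, NUMBL, DNER, DLK2, ADAM17 and APH1B all lost), 1 by the methods' t-test and 16 with its p unadjusted, and 3 to 10 when single arrays were left out (3 without spheroid 3, 10 without monolayer 1). Over all probe sets the 5149 calls were 457 without the trend, 1241 by the methods' t-test, 10731 with its p unadjusted, and 2438 to 6577 without single arrays (2438 and 2473 without monolayers 2 and 3, 3047 and 2817 without spheroids 2 and 3).
Replicate numbers are shared between the groups. Over all probe sets same-numbered arrays deviated together little (r = 0.09, -0.01 and 0.02), and not every array correlated best with its own number. The replicate 1 pair, at 0.09, had the highest r of all pairs. At KRT5, CALB2, KDR and COL3A1 replicate 1 was the highest in both groups, and at TIE1 and LUM it was the lowest in both. With the replicate number as a block 6133 probe sets were called in all, 3 of the 24 Notch probe sets, 3 of the 9 genes with NRARP added (-0.79, adjusted p = 0.0283 by limma), and 8 other pathway genes, where HDAC2 was lost (adjusted p = 0.0502 by limma) and POFUT1, FBXW7 and DTX4 were added to 5 that stayed called.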
